A study of Mus musculus with 8 samples.

Results

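The 7 genes described here encode the sterol regulatory element-binding proteins (SREBPs) and the proteins that escort, retain and cleave them: Srebf1, Srebf2, Scap, Insig1, Insig2, Mbtps1 and Mbtps2. They were chosen by name for their role in SREBP processing, with earlier results of these data known. They are 7 of the 25010 genes in the RNA-Seq table. RNA-Seq was performed on the left lobe of the liver of 2 wild-type (WT) mice and 2 mice that lacked both liver X receptors in the whole body (LXRDKO), with 1 library per mouse. All 4 mice were on the C57BL/6 background, 8 weeks old and fasted for 4 to 6 h before the liver was taken. The question of the comparison was which liver RNAs differ when LXRα and LXRβ are absent. Values are read counts that the authors normalized for sequencing depth (normalized counts), from libraries with 55772659, 72842744, 63681131 and 56281367 reads on genes in WT replicates 1 and 2 and LXRDKO replicates 1 and 2.

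SREBPs are made as membrane proteins of the endoplasmic reticulum (ER), where SCAP binds them and the INSIG proteins hold the complex back when sterols are plentiful. When sterols run low, SCAP carries the SREBP to the Golgi in COPII vesicles, and the site-1 and site-2 proteases release the part that enters the nucleus and turns on genes of lipid synthesis. In liver, SREBP-1c, a product of Srebf1, mainly drives fatty acid synthesis and is itself a transcriptional target of LXR and insulin, whereas SREBP-2 mainly drives cholesterol synthesis and uptake.

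The genotype was checked first. Nr1h3, which encodes LXRα, had 5785 and 5322 normalized counts in WT against 1712 and 1826 in LXRDKO livers. Nr1h2, which encodes LXRβ, had 2987 and 3110 in WT against 925 and 1003 in LXRDKO livers. Each LXRDKO liver lay below each WT liver for each receptor, with log2 fold changes (LXRDKO minus WT, on log2 of the normalized count plus 1) of −1.65 for Nr1h3 and −1.66 for Nr1h2 (standard errors [SE] 0.095 and 0.098, limma adjusted P = 0.0147 each). The adjusted P values were 0.0953 and 0.0952 without LXRDKO replicate 1 and 0.0813 and 0.0768 without LXRDKO replicate 2, with log2 fold changes that stayed between −1.72 and −1.60. A value counts reads over the whole gene, whichever exons were deleted.

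The tissue label was checked against markers of liver cells. All 8 hepatocyte markers were detected in every liver, led by Alb, and summed to 7428032 and 8183048 normalized counts in WT against 7719636 and 7156024 in LXRDKO livers. None of the 8 passed the limma test, 1 reached an unadjusted P value under 0.05 and DESeq2 called 1 higher (1.69% of its genes). Over all genes tested, 23.0% lay lower and 21.7% higher in LXRDKO livers without overlap between the groups, limma called 0.186% lower, and 13.3% had an unadjusted P value under 0.05. Of 8 Kupffer cell markers, 7 were lower in each LXRDKO liver than in any WT liver and 4 of these passed the limma test. Kupffer markers summed to 11122 and 12009 in WT and 4767 and 2560 in LXRDKO livers, Csf1r was the most abundant, and Timd4 was at 0 in LXRDKO replicate 2. Sinusoidal endothelial markers were lower without overlap for 5 of 8 genes, 2 of which passed the limma test, and their sum, led by Stab1, was 15294 and 14124 in WT and 12035 and 9363 in LXRDKO livers. Limma called 2 genes lower over the whole table without LXRDKO replicate 1 and 3 without LXRDKO replicate 2, so not all of these marker calls held. Markers of stellate cells and of bile duct cells mostly lay the other way. Stellate cell markers, led by Dcn, summed to 12645 and 16070 in WT and 18352 and 21315 in LXRDKO livers, and 5 of 8 were higher in LXRDKO livers without overlap. Cholangiocyte markers, led by Spp1, were all 7 higher without overlap, with sums of 3448 and 4909 in WT and 6027 and 6868 in LXRDKO livers. Lymphocyte markers, led by Cd79b, summed to 176 and 297 in WT and 172 and 132 in LXRDKO livers, and 5 of 7 were lower without overlap. None of the stellate, cholangiocyte or lymphocyte markers passed the limma test, where 3 of each list had an unadjusted P value under 0.05, against the 13.3% of all genes. DESeq2 called 2 stellate markers and 1 cholangiocyte marker higher and no lymphocyte marker. It called 6 Kupffer and 2 endothelial markers lower, where 1.69% of its genes were called higher and 2.23% lower. The edgeR test called 5 Kupffer and 2 endothelial markers (0.193% of all genes lower and 0.122% higher). It called no stellate, cholangiocyte or lymphocyte marker. The part of these other cells in the results below was not tested.

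All 7 SREBP genes passed the filter on low values (a mean of at least 10 normalized counts), as did 15578 genes in all. The limma test, with P values adjusted over all genes tested and a threshold of 0.05, called 1 of the 7, Srebf1, as lower in LXRDKO livers and none as higher. Over all genes tested, limma called 0.186% lower and 0.135% higher. DESeq2 and edgeR, run on the reads recovered from the normalized counts, each called Srebf1 lower and none of the other 6 genes, where DESeq2 called 2.23% of its genes lower and 1.69% higher and edgeR 0.193% lower and 0.122% higher. An unadjusted limma P value under 0.05 was reached by 4 of the 7 genes, Srebf1, Scap, Insig1 and Mbtps1, and by 13.3% of all genes. In the same 4 genes each LXRDKO liver lay below each WT liver, an order seen in 23.0% of all genes, and none of the 7 showed the opposite order, which 21.7% of all genes showed. The median log2 fold change was −0.22 over the 7 genes and −0.0046 over all genes tested.

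**Figure D1:**
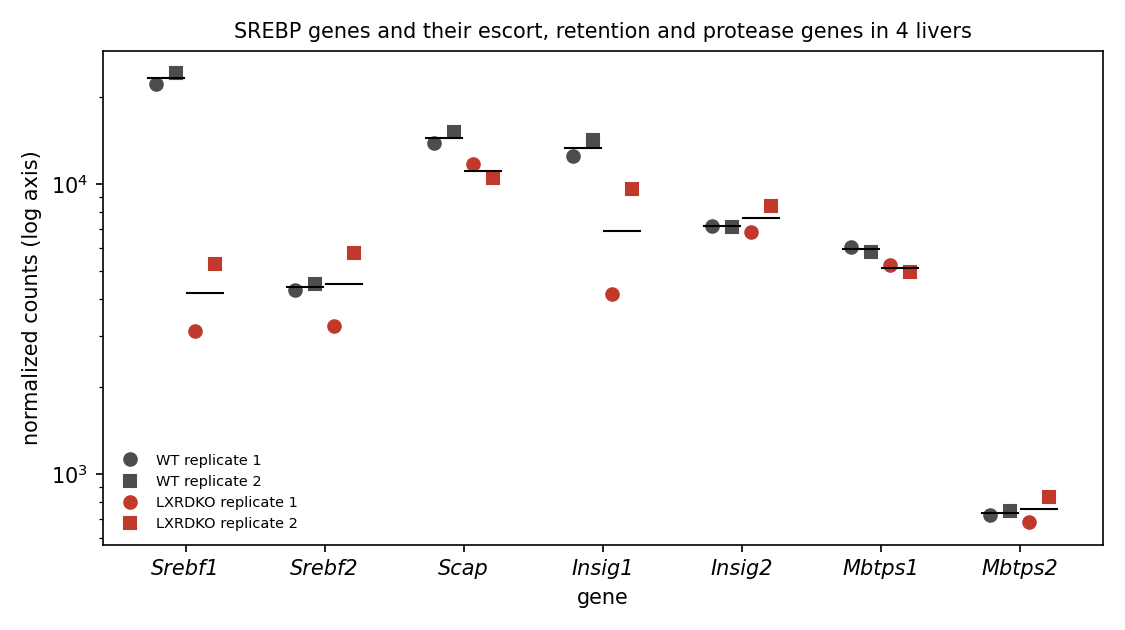
Normalized counts (log axis) of the 7 genes in each liver, with WT livers in gray, LXRDKO livers in red, circles for replicate 1, squares for replicate 2 and a line at the mean of each genotype (n = 2). Srebf1 had 3118 and 5287 normalized counts in the LXRDKO livers, below the 22205 and 24071 of the WT livers, while the LXRDKO livers lay on either side of the WT livers for Srebf2.

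Of the genes of the transcription factors themselves, Srebf1 fell in LXRDKO livers, while the LXRDKO livers lay on either side of the WT livers for Srebf2. Srebf1 (chromosome 11, 60199089 to 60222581, GRCm38, minus strand) had 22205 and 24071 normalized counts in WT against 3118 and 5287 in LXRDKO livers. The groups were far apart, and LXRDKO replicate 2 was 1.70 times as high as LXRDKO replicate 1. The mean in LXRDKO livers was 18.2% of the WT mean, and the log2 fold change was −2.51, a 5.69-fold lower level (SE 0.24, 95% interval −3.12 to −1.90, limma adjusted P = 0.0407). By this P value Srebf1 ranked 27 among the 15578 genes tested. The call lay close to the threshold: the adjusted P value from limma was 0.0715 without LXRDKO replicate 1, 0.0540 with a filter at a mean of 50 and 0.219 without the variance trend, in a range from 1.73e-22 (DESeq2) to 0.219 over the alternatives. In RNA from whole tissue, fewer cells of a type and less RNA per cell cannot be told apart.

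Srebf1 overlaps Rai1 on the opposite strand, which had 1761 and 1781 normalized counts in WT against 1884 and 1830 in LXRDKO livers. Mir6921 lies within Srebf1 on the same strand, so reads can be shared between them, and had 19.4 and 22.1 in WT against 0.949 and 6.43 in LXRDKO livers. Gm49502 overlaps Srebf2 on the same strand, and had 22.8 and 16.1 in WT against 28.5 and 39.7 in LXRDKO livers. Mir6922 in Srebf1, Mir33 in Srebf2 and Yy2 in Mbtps2 are also on the same strand and had no values. Scap, Insig2 and Mbtps2 are overlapped by genes on the opposite strand. Values are per gene, so SREBP-1a and SREBP-1c, which start at different promoters of Srebf1, were not told apart.

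Srebf2 (chromosome 15, 82147181 to 82205379, plus strand) had 4302 and 4523 normalized counts in WT against 3251 and 5790 in LXRDKO livers. LXRDKO replicate 1 was below both WT livers and LXRDKO replicate 2 above both, so the groups overlapped. The log2 fold change was −0.024 (SE 0.26, 95% interval −0.67 to 0.63, limma adjusted P = 0.982), and its sign turned with the scaling and with the liver left out, from −0.44 without LXRDKO replicate 2 to 0.39 without LXRDKO replicate 1. This interval left room for a level from 0.627 to 1.54 times that of WT.

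The ratio of Srebf1 to Srebf2 within a library does not depend on how libraries were scaled. Per kilobase of exon it was 6.58 and 6.79 in WT against 1.22 and 1.16 in LXRDKO livers. The ratio varied little within each genotype, although the level of each gene differed between the LXRDKO livers. On the log2 scale, and of normalized counts plus 1, it was 2.39 ± 0.031 in WT and −0.096 ± 0.050 in LXRDKO livers (SD, n = 2 each). The difference of −2.49 had P = 0.333 in a two-sided exact permutation test, the smallest that 2 against 2 livers can give.

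RefSeq promoter sequences (GRCm38.p6) were matched for all 7 genes, with 12 starts in all, and the 250 bases before each start were searched on both strands. GGGTTANNNNCGG is the form of the LXR response element known from the mouse Srebf1 promoter itself, so its presence there was given in advance and is no finding. It was in 1 of the 12 windows, that of the Srebf1 start from which SREBP-1c is made, and in 0.113% of 32851 promoters. It occurred there at 2 places, 179 to 167 and 128 to 116 bases before the start. The letters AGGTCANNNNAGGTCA, a perfect form of the direct repeat that LXR binds, were in none of the 12 and in 0.0152% of all promoters. TCACCCCA, the core of the sterol regulatory element, was found in the Srebf2 window and in 1.34% of all promoters. CCAAT, the box bound by NF-Y, was in windows of Srebf1, Srebf2, Insig1 and Insig2. These are 4 of the 7 genes, against 37.5% of all genes with a promoter (33.8% of single promoters). The E-box CACGTG was in windows of Scap and Insig1, 2 of the 7 genes, against 6.86% of genes (6.02% of single promoters). Because Srebf1 fell and Srebf2 did not pass the test, their windows are shown, with GGGTTANNNNCGG (here on the other strand) in capitals for Srebf1 and TCACCCCA in capitals for Srebf2. The Srebf1 window, chr11:60210472-60210721 on the minus strand, lies in an intron of the 2 annotated transcripts of Srebf1 that span it. The Srebf2 window, chr15:82147019-82147180 on the plus strand, lies outside annotated exons, and the 88 bases nearest the start, which lie in an exon, are not shown. A match describes the letters and is not evidence of binding.
Srebf1 promoter: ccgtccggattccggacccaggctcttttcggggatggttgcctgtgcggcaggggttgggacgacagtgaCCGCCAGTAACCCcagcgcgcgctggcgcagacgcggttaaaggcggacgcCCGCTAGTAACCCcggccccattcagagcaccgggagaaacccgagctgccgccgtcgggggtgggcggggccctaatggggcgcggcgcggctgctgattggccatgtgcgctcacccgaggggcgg
Srebf2 promoter: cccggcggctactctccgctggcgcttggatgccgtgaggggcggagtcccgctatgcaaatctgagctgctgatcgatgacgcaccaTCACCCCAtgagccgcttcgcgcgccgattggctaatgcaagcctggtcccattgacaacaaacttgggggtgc

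Scap, the escort protein that senses sterols (chromosome 9, 110333288 to 110384950, plus strand), had 13850 and 15088 normalized counts in WT against 11731 and 10501 in LXRDKO livers. Each LXRDKO liver was below each WT liver, and the gap was larger than the difference within either genotype. The mean in LXRDKO livers was 76.8% of the WT mean, with a log2 fold change of −0.38 (SE 0.10, 95% interval −0.64 to −0.12), and did not pass the threshold (adjusted P = 0.235 in limma and 0.117 in DESeq2).

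The retention genes Insig1 and Insig2 encode ER proteins that bind SCAP. Insig1, which is itself a target of SREBPs (chromosome 5, 28071363 to 28078662, plus strand), had 12462 and 14165 normalized counts in WT against 4167 and 9598 in LXRDKO livers. Each LXRDKO liver was below each WT liver, but LXRDKO replicate 2 was 2.30 times as high as LXRDKO replicate 1. The log2 fold change was −1.07 (SE 0.37, 95% interval −1.99 to −0.15, limma adjusted P = 0.318) and moved from −1.67 without LXRDKO replicate 2 to −0.47 without LXRDKO replicate 1.

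Insig2 (chromosome 1, 121304353 to 121332589, minus strand) had 7189 and 7092 normalized counts in WT against 6822 and 8399 in LXRDKO livers. The groups overlapped, with LXRDKO replicate 1 below and LXRDKO replicate 2 above the WT livers. The log2 fold change was 0.084 (SE 0.12, 95% interval −0.22 to 0.39, limma adjusted P = 0.833), and was −0.066 without LXRDKO replicate 2. The liver-enriched Insig2a and the more general Insig2b start at different promoters and were not told apart in values per gene.

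Per kilobase of exon, the ratio of Insig1 to Insig2 was 1.95 and 2.24 in WT against 0.686 and 1.28 in LXRDKO livers. Insig1 thus exceeded Insig2 in 3 of the 4 livers and lay below it in LXRDKO replicate 1. The log2 ratio of normalized counts plus 1 was 0.90 ± 0.14 in WT and −0.26 ± 0.64 in LXRDKO livers (SD, n = 2 each), and the difference of −1.16 had P = 0.333 in a two-sided exact permutation test, again the smallest possible.

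Mbtps1 encodes the site-1 protease, which makes the initial cut in the SREBP. The gene (chromosome 8, 119508156 to 119558735, minus strand) had 6061 and 5851 normalized counts in WT against 5269 and 4979 in LXRDKO livers. Each LXRDKO liver was below each WT liver, by a small margin. The mean was 86.0% of the WT mean, with a log2 fold change of −0.22 (SE 0.087, 95% interval −0.43 to −0.0016, limma adjusted P = 0.373).

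Mbtps2 encodes the site-2 protease, which cuts within the membrane. It (chromosome X, 157535371 to 157598715, minus strand) had 723 and 746 normalized counts in WT against 682 and 836 in LXRDKO livers. The groups overlapped, with the LXRDKO livers on either side of the WT livers. The log2 fold change was 0.040 (SE 0.14, 95% interval −0.31 to 0.39, limma adjusted P = 0.940) and was −0.11 without LXRDKO replicate 2. Mbtps2 had the fewest reads of the 7 genes, between 634 and 879 per library, where the counting error of the lowest is 3.97%.

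Levels of the 7 genes were compared per kilobase of exon, because a longer transcript gives more reads. The length was 1 value per gene, 7184 bases for Srebf2 and 10539 for Mbtps1, whichever transcripts were present. Mbtps1 has 9 annotated transcripts, of which 2 code for protein. Close orders, as of Srebf2 and Mbtps1, can depend on the length used. In WT livers the order of mean levels was Insig1 with 4304 ± 389 normalized counts per kilobase, Srebf1 with 4107 ± 234, Insig2 with 2056 ± 19.9, Scap with 1944 ± 118, Srebf2 with 614 ± 21.7, Mbtps1 with 565 ± 14.1 and Mbtps2 with 72.7 ± 1.61 (SD, n = 2). Both WT livers had this order, although Insig1 and Srebf1, and likewise Insig2 and Scap, differed by less than the sum of their SDs. In LXRDKO livers the order of means was Insig1 with 2225 ± 1242, Insig2 with 2191 ± 321, Scap with 1493 ± 117, Srebf1 with 746 ± 272, Srebf2 with 629 ± 250, Mbtps1 with 486 ± 19.4 and Mbtps2 with 75.1 ± 10.8 (SD, n = 2). Srebf1 stood second among the 7 in each WT liver and 4th in each LXRDKO liver. Insig2 exceeded Scap in each LXRDKO liver, whereas Insig1 lay below both in LXRDKO replicate 1 and above both in LXRDKO replicate 2. The means of Srebf1, Srebf2 and Mbtps1 differed by less than the sum of their SDs in LXRDKO livers, although Srebf1 exceeded the others in each of these livers. The Srebf1 level exceeded that of 96.2% of tested genes in WT livers and 83.2% in LXRDKO livers, and the Mbtps2 level that of 38.5% and 39.1%.

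For the 4 genes with an unadjusted limma P value under 0.05, the 3 nearest profiles were taken among 11410 genes with a mean of at least 100, by the Euclidean distance of log2 values centered on each gene's mean over the 4 livers. Nearest to Srebf1 were Acacb (distance 0.52), which encodes acetyl-CoA carboxylase 2, then Bcl6b (0.67) and Gbp2b (0.68). Acacb had 12108 and 15991 normalized counts in WT against 2822 and 3501 in LXRDKO livers. Nearest to Insig1 were Insc (0.20), Ugt1a5 (0.21), which shares exons with other Ugt1a genes and is uncertain for that reason, and Paqr9 (0.28). Paqr9 had 27601 and 34147 normalized counts in WT against 10891 and 19361 in LXRDKO livers, with LXRDKO replicate 2 again above LXRDKO replicate 1. Nearest to Scap were Hspg2 (0.021), Nectin3 (0.031) and Tdp2 (0.044), and nearest to Mbtps1 were Zfand3 (0.017), Eea1 (0.021) and Ralb (0.022).

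Genes that act with the 7 were described in 7 lists of 109 genes, all of which passed the filter. The lists were chosen with earlier results of these data known, so their shares beside those of all genes are descriptive only. The COPII coat genes, which carry SCAP and SREBP out of the ER, were lower in 7 of 10 cases with a median log2 fold change of −0.081, against −0.0046 over all genes. This median lay between −0.22 without LXRDKO replicate 2 and 0.0070 without LXRDKO replicate 1, with −0.017 and −0.15 without WT replicates 1 and 2. Sar1b, a GTPase that starts the coat, had 9387 and 10354 normalized counts in WT against 7021 and 8648 in LXRDKO livers. Sec24a had 13005 and 12516 against 8317 and 11385, and Sec24c had 9382 and 8051 against 7434 and 8196. Groups did not overlap for Sar1b and Sec24a, and overlapped for Sec24c. None of the 10 passed limma, DESeq2 or edgeR. In limma 1 reached an unadjusted P value under 0.05, and 2 were lower without overlap, shares not above the 13.3% and 23.0% of all genes.

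The list of sterol-regulated ER retention and degradation held 14 genes, 7 higher and 7 lower, with a median of −0.0025, which was 0.060 and −0.059 without WT replicates 1 and 2 and 0.025 and −0.052 without LXRDKO replicates 1 and 2. Rnf145, a ubiquitin ligase of the ER, had 1713 and 3571 normalized counts in WT against 1102 and 788 in LXRDKO livers. Its groups did not overlap although the WT livers differed widely, and its log2 fold change was −1.41 (SE 0.36, limma adjusted P = 0.214). Without WT replicate 1 it was −1.94 and passed the test (limma adjusted P = 0.0102), and without WT replicate 2 it was −0.88. Erlin1, an ER protein that binds cholesterol, had 3765 and 4008 in WT against 2929 and 3170 in LXRDKO livers, and Ube2g2, a ubiquitin-conjugating enzyme, had 1554 and 1409 in WT against 1723 and 1844 in LXRDKO livers. Neither gene's groups overlapped. Over the list, 5 genes were lower and 3 higher without overlap (23.0% and 21.7% of all genes), and 6 overlapped. No gene of the list passed limma, DESeq2 or edgeR, and 3 reached an unadjusted P value under 0.05 in limma (13.3% of all genes).

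Of 14 escort, Golgi and nuclear cofactors of SREBP, 11 were lower, with a median of −0.12, which was −0.037 without WT replicate 1. Of the NF-Y subunit genes on this list, Nfyb was lower and Nfya higher in each LXRDKO liver, and neither passed the test. Nfyb had 1612 and 1599 normalized counts in WT against 1362 and 1398 in LXRDKO livers, whereas Nfya had 595 and 587 in WT against 668 and 770 in LXRDKO livers. Crebbp, a coactivator, had 2990 and 3141 in WT against 2695 and 2743 in LXRDKO livers. The groups did not overlap for these 3 genes, and they overlapped for Nfyc, the third NF-Y subunit, at 577 and 553 in WT against 519 and 583 in LXRDKO livers. Over the list, 4 genes were lower and 2 higher without overlap (23.0% and 21.7% of all genes). No gene of the list passed limma, DESeq2 or edgeR or reached an unadjusted P value under 0.05 in limma.

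The 8 genes of other substrates of the Golgi proteases had a median of 0.062, with 5 higher and 3 lower. The median was 0.0050 with a filter at a mean of 50, 0.013 and 0.11 without LXRDKO replicates 2 and 1, and −0.072 without WT replicate 2, so its sign was not settled. Creb3l3, a membrane-bound transcription factor of hepatocytes, had 29221 and 29193 normalized counts in WT against 22248 and 25753 in LXRDKO livers. Atf6, a sensor of ER stress, had 8165 and 7656 in WT against 7282 and 6998 in LXRDKO livers, and Creb3l2 had 1331 and 1338 in WT against 1249 and 1156 in LXRDKO livers. These were the 3 genes of the list with each LXRDKO liver below each WT liver, and 2, Creb3 and Creb3l4, had the opposite order (23.0% and 21.7% of all genes). None passed limma or edgeR, or DESeq2, which gave no adjusted P value for Creb3l4, and 1 gene, Creb3l3, reached an unadjusted P value under 0.05 in limma (13.3% of all genes).

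Among 17 transcriptional regulators of Srebf1, which include the LXR genes themselves, the median was −0.27 (−0.18 without LXRDKO replicate 2) and 13 were lower. Limma and edgeR called Nr1h3 and Nr1h2 alone as lower (0.186% and 0.193% of all genes), the genes deleted in these mice, which are also in the counts below. DESeq2 (2.23% of its genes lower) also called Nr0b2, named here after its values were seen, at 1055 and 700 normalized counts in WT against 285 and 402 in LXRDKO livers. In 10 of the 17 each LXRDKO liver lay below each WT liver (23.0% of all genes), and 9 reached an unadjusted P value under 0.05 in limma (13.3% of all genes). One of these 9, Irs2, was higher in LXRDKO livers, with a log2 fold change of 0.31.

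The SREBP-1 targets of fatty acid synthesis were lower in LXRDKO livers in 19 of 22 cases, with a median log2 fold change of −0.93. The paper counts some genes of this list among classical LXR targets. A direct effect of LXR loss and one by way of Srebf1 cannot be told apart here. In 16 of the 22 each LXRDKO liver lay below each WT liver, against 23.0% of all genes. Limma called 3 lower, Acacb, Gpam and Aacs, and none higher (0.186% and 0.135% of all genes), and edgeR called the same 3. Aacs, which encodes acetoacetyl-CoA synthetase, had 9585 and 9471 normalized counts in WT against 4236 and 4555 in LXRDKO livers, a log2 fold change of −1.12 (SE 0.088, limma adjusted P = 0.0254). Gpam, which encodes an acyltransferase of triglyceride synthesis, had 13281 and 15190 in WT against 6476 and 7061 in LXRDKO livers. Its log2 fold change was −1.07 (limma adjusted P = 0.0417). The Gpam call was lost with a filter at a mean of 50 (0.0540), with scaling to the library total (0.0518) and without the variance trend (0.219). Acacb and Aacs also lost their calls without the trend (limma adjusted P = 0.212 each), at unchanged log2 fold changes. DESeq2 called 12 lower and 1 higher (2.23% and 1.69% of its genes), and 14 reached an unadjusted P value under 0.05 in limma (13.3% of all genes). The higher gene was Lpin1, a phosphatidate phosphatase named after its values were seen, at 15010 and 8975 in WT against 47130 and 51115 in LXRDKO livers. Without LXRDKO replicate 1, or without LXRDKO replicate 2, limma called none of the 109 list genes lower, against 5 with all livers, 14 without WT replicate 1 and 9 without WT replicate 2. The log2 fold changes stayed about as large without LXRDKO replicate 1 and without LXRDKO replicate 2, at −1.99 and −2.30 for Acacb, −1.01 and −1.13 for Gpam and −1.06 and −1.17 for Aacs.

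The SREBP-2 targets of cholesterol synthesis and uptake were higher in LXRDKO livers in 17 of 24 cases, with a median log2 fold change of 0.27. Limma and edgeR called none of the 24, 8 reached an unadjusted P value under 0.05 in limma (13.3% of all genes), and DESeq2 called 4 higher and 1 lower (1.69% and 2.23% of its genes). Cyp51, which encodes lanosterol demethylase, had 10872 and 9733 normalized counts in WT against 20539 and 33162 in LXRDKO livers. Tm7sf2, a sterol reductase gene, had 7737 and 8233 in WT against 11362 and 13599 in LXRDKO livers. Stard4, which encodes a sterol carrier protein, had 10382 and 10569 in WT against 5701 and 7099 in LXRDKO livers. Groups did not overlap for these 3 genes, whose adjusted P values were 0.117, 0.127 and 0.120 in limma and 1.76e-07, 0.00133 and 0.000562 in DESeq2. Over the list, 14 of 24 genes overlapped between groups, 5 were higher without overlap and 5 lower, shares close to the 21.7% and 23.0% of all genes.

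The livers of a genotype differed from each other in this list and in others, a comparison made after the values were seen. All 24 SREBP-2 targets were higher in LXRDKO replicate 2 than in LXRDKO replicate 1, as were 50.3% of all genes tested, with a median log2 difference of 0.92 against 0.0024 over all genes. Between the WT livers, 16 of 24 were higher in replicate 2, with a median difference of 0.076. The same was seen in 19 of 22 SREBP-1 targets between the LXRDKO livers, with a median of 0.28, and 16 of 22 between the WT livers, with a median of 0.32. Of the other lists, 9 of 10 COPII genes and 12 of 14 cofactors were higher in LXRDKO replicate 2, with medians of 0.25 and 0.070, while between the WT livers 2 of 10 and 1 of 14 were higher in replicate 2, with medians of −0.091 and −0.18. The cofactors thus differed more between the WT livers. All 8 stellate markers were higher in LXRDKO replicate 2, with a median of 0.26, and 6 of 8 in WT replicate 2, with a median of 0.25. Of 8 markers each, 7 Kupffer and 7 endothelial markers were lower in LXRDKO replicate 2, with medians of −0.81 and −0.33, and 7 and 2 were higher in WT replicate 2, with medians of 0.15 and −0.057. Of 7 lymphocyte markers, 1 was higher in LXRDKO replicate 2 and all 7 in WT replicate 2, with medians of −0.26 and 0.74. In the remaining lists 8 of 14 retention genes, 5 of 8 other protease substrates, 9 of 17 regulators, 4 of 8 hepatocyte and 4 of 7 cholangiocyte markers were higher in LXRDKO replicate 2, against 5, 4, 6, 3 and 4 in WT replicate 2. Srebf2 and Insig1 were higher in LXRDKO replicate 2, by log2 0.83 and 1.20, as were Srebf1, by 0.76, and Insig2 and Mbtps2, by 0.30 and 0.29, whereas Scap and Mbtps1 lay lower in LXRDKO replicate 2, with log2 differences of −0.16 and −0.082. Set against the WT mean, the median of the SREBP-2 targets was −0.20 with LXRDKO replicate 1 alone and 0.74 with LXRDKO replicate 2 alone, so its sign rested on which liver was used. For the SREBP-1 targets it was −1.12 and −0.89. Over all genes the livers of a genotype were about equally close, with a median absolute log2 difference of 0.18 in WT and 0.17 in LXRDKO mice.

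**Figure D2:**
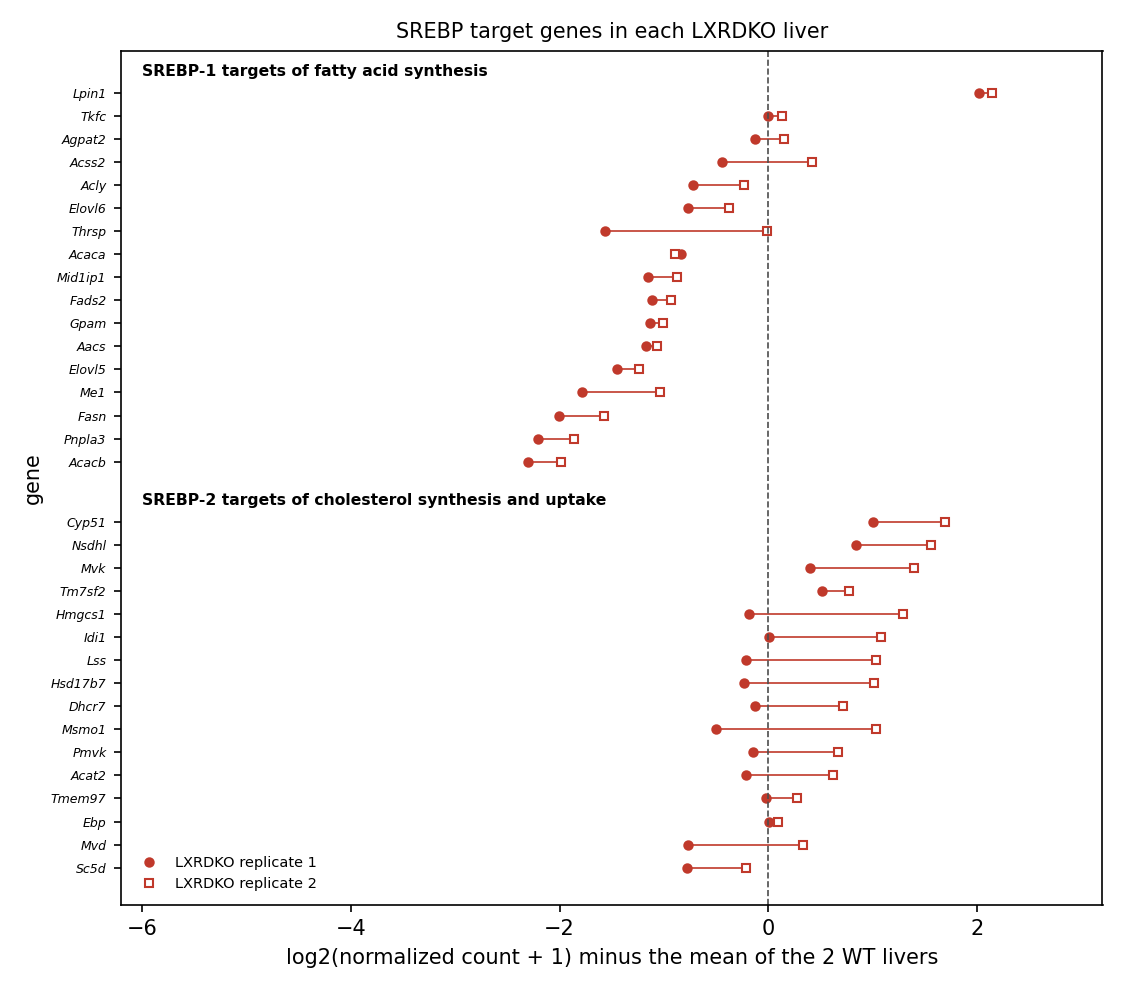
The 17 SREBP-1 and 16 SREBP-2 targets with a promoter window in RefSeq, in LXRDKO replicate 1 (filled circles) and LXRDKO replicate 2 (open squares), as log2 of the normalized count plus 1 minus the mean of the 2 WT livers, which lies at the dashed line at 0. All 16 SREBP-2 targets shown had the square to the right of the circle, and most SREBP-1 targets shown had both symbols left of the dashed line.

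Promoter windows were also matched for 17 SREBP-1 and 16 SREBP-2 targets. CCAAT was found before at least 1 start of 15 of the 16 SREBP-2 targets, 9 of the 17 SREBP-1 targets and 37.5% of 27025 genes with a promoter. TCACCCCA was found for 1 gene of each list and 1.54% of all genes, and GGGTTANNNNCGG for 1 SREBP-1 target, no SREBP-2 target and 0.13% of all genes.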

How the data were processed

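Polyadenylated RNA was sequenced from 1 liver library per mouse. Per the study's methods and processing notes, reads were aligned to mm10 with STAR 2.6.0c. The deposited values are a signal, gene counts that the authors divided by DESeq2 size factors, and 100% of values came out as whole reads to within 0.01 read. The counting tool and its use of strand were not given in the sources used here. Limma 3.58.1 (R 4.3.3) was fitted to log2(normalized count + 1) with a variance trend, and P values were Benjamini-Hochberg adjusted over all genes whose mean reached 10. Recovered reads were also tested with DESeq2 1.42.0 and edgeR 4.0.16. Positions, exon lengths and overlaps came from GENCODE M21 (GRCm38), with 24987 of 25010 identifiers matched.

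The members and lists were chosen with earlier results of these data known. Named genes were the 7 members, genes that overlap them, both LXR genes and nearest profiles. List genes were named if called by limma, otherwise the 3 with the lowest P value in a list. Genes named after their values were seen were Nr0b2, Lpin1, Irs2, Nfyc, Creb3, Creb3l4 and a few marker genes. Alternatives were other pseudocounts, filters, scalings and limma settings, the count tests, a replicate block and leaving out each liver. P values measure only the spread between these livers, and limma estimated that spread for each gene partly from the other genes. ATAC-Seq samples of the series were not analysed here, and single values of some target genes are not reported here.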

Additional observations from a re-analysis of the deposited data

How the results depend on the processing

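Srebf1 was lower in LXRDKO livers under every alternative run, with log2 fold changes from −2.89 to −2.13 as single livers were left out. It kept its value of −2.51 but lost the call with a filter at a mean of 50 and without the variance trend, and lost it at −2.13 without LXRDKO replicate 1. Scap, Insig1 and Mbtps1 were lower and uncalled under every alternative, with leave-one-out ranges of −0.46 to −0.30, −1.67 to −0.47 and −0.26 to −0.18. Srebf2 turned to 0.031 with scaling to the library total, 0.035 with DESeq2 and 0.043 with edgeR, and ranged from −0.44 to 0.39 when livers were left out, Insig2 from −0.066 to 0.23 and Mbtps2 from −0.11 to 0.19. With single livers left out, the difference between genotypes in the log2 ratio of Srebf1 to Srebf2 ranged from −2.52 to −2.45, and that of Insig1 to Insig2 from −1.61 to −0.70.

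Limma called 29 genes lower and 21 higher, 15 and 10 with a filter at a mean of 50, 1 and 0 without the trend, and 330 and 250 were called by DESeq2. Of the list genes, 5 were called lower and 0 higher, 0 lower without the trend, 16 lower and 5 higher with DESeq2, and 1 higher with scaling to the library total. Leaving out livers gave 2 to 128 genes lower and 0 to 137 higher, and 0 to 14 list genes lower and 0 to 1 higher. A lone liver in a group is then assumed to vary like the other group. With the replicate number as a block, 55 genes were called lower and 35 higher, and 11 list genes lower and 1 higher, and no call of the 7 genes changed. Deviations of same-numbered livers had a correlation of 0.0031 across genes, so the numbers were not taken as pairs. The cause was not tested for any of these shifts. With 2 livers per genotype, a permutation test cannot pass 0.05.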
